A study of Mus musculus with 9 samples.

Results

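A set of 33 mouse genes for cholesterol synthesis and its regulation was examined in plasmacytoid dendritic cells (pDCs), a dendritic cell type known for secreting large amounts of type I interferon. The genes were matched by symbol from a list that was chosen with earlier results of these data known. All 33 of the 33 were found among the 57126 genes of the count table. RNA was sequenced from mouse pDCs sorted by flow cytometry and treated with oxidized mitochondrial DNA (Ox-mtDNA), with mitochondrial DNA (mtDNA) or with phosphate-buffered saline (PBS), the vehicle, with 3 libraries in each group and 9 libraries in all. Cell type and polyadenylated RNA were common to all groups. Strain, age, dose and time are not given in the sources used here. The 12 pDC markers were measured in every library, including Siglech at 1194 to 2015 CPM after Ox-mtDNA, 1766 to 2192 CPM after mtDNA and 1717 to 2440 CPM in PBS. CPM (counts per 1000000 counts of the library, with its normalization factor applied) is the unit of all levels. For Xist and the Y chromosome genes the factor was not applied.

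Cholesterol is built from acetyl-CoA through mevalonate, isoprenoid diphosphates, squalene and lanosterol. When sterols in the endoplasmic reticulum are low, the escort protein SCAP carries the transcription factors SREBP1 and SREBP2, encoded by Srebf1 and Srebf2, to the Golgi for cleavage, and they switch on the genes of synthesis and uptake. When sterols are plentiful, INSIG proteins hold SCAP back, and oxysterols activate the liver X receptors, which switch on the exporters ABCA1 and ABCG1. In macrophages, interferon signalling is known to lower sterol synthesis.

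The set holds 19 synthesis enzymes: 6 of the mevalonate pathway (Acat2, Hmgcs1, Mvk, Pmvk, Mvd and Idi1), the 2 isoprenoid synthases Fdps and Ggps1, and 11 enzymes of squalene and sterol synthesis (Fdft1, Sqle, Lss, Cyp51, Tm7sf2, Msmo1, Nsdhl, Hsd17b7, Ebp, Sc5d and Dhcr7). It also holds 5 regulators of SREBP (Srebf1, Srebf2, Scap, Insig1 and Insig2), 2 genes of uptake and transport (Stard4 and Mylip), 2 efflux genes (Abca1 and Abcg1) and 5 genes of fatty acid synthesis and desaturation (Fasn, Scd1, Scd2, Fads1 and Fads2). All 33 passed the filter on low counts, as did 17555 of all genes.

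SREBP proteins bind short sterol regulatory elements and act with the factor NF-Y, which binds the CCAAT box. Promoters of 25 of the 33 members were present in the RefSeq table used (build GRCm38.p6), and the 250 bases before the start were searched on both strands. At least 1 CCAAT box (CCAAT, or ATTGG on the other strand) was found for 15 of the 16 enzymes with a promoter and for 21 of the 25 members, against 37.5% of all 27025 genes. A sterol regulatory element written as TCACNCCAC was found for 1 of the 25 members, Hmgcs1, against 1.22% of all genes. The promoters below were chosen to set the enzymes with the largest differences in level, Acat2 (chr17:12960726-12960975, minus strand) and Lss (chr10:76531355-76531604, plus strand), beside 2 with many CCAAT boxes, Mvk (chr5:114444019-114444268, plus strand) and Hmgcs1 (chr13:119690101-119690350, plus strand). Capitals mark CCAAT boxes on either strand and, in Hmgcs1, the sterol regulatory element.
Acat2: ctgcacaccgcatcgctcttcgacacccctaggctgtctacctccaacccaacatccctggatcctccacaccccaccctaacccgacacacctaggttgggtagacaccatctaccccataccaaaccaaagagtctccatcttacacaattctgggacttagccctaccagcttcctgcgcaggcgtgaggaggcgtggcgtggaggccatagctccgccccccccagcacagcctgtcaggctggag
Lss: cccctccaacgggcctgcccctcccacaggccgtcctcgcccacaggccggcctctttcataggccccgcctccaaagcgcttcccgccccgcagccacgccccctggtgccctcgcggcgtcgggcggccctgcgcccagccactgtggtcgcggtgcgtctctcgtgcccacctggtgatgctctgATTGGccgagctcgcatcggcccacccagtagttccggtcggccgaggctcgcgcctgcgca
Mvk: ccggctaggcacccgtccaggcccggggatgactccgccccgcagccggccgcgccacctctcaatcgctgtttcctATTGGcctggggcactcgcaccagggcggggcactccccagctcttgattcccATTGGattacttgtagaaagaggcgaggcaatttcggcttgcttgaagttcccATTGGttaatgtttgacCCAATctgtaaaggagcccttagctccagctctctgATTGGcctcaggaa
Hmgcs1: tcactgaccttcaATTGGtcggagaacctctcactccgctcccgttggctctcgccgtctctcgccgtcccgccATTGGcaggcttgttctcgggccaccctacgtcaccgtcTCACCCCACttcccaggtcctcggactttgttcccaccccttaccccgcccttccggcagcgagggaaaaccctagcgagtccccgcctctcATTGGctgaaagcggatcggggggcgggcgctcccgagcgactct
The window of Acat2 held no CCAAT box, that of Lss held 1, that of Mvk 5 and that of Hmgcs1 3. Mvk was itself lower in Ox-mtDNA against PBS, with a log2 fold change of -1.27, and Sqle, at -1.63, had no promoter to show. Whether the number of CCAAT boxes goes with the differences in level was not tested. None of the 4 windows other than that of Hmgcs1 held the sterol regulatory element in these letters, and the binding of either factor was not measured.

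Total counts per library ranged from 16029951 to 25378884. Replicate 3 of each group differed from replicates 1 and 2 along a first principal component that held 70.7% of the variance. Xist, a long RNA that silences 1 X chromosome in female cells, was at 2096, 1934 and 849 CPM in replicate 3 of Ox-mtDNA, mtDNA and PBS and at most 0.772 CPM in the other libraries. Summed Y chromosome genes were at 5.54, 3.16 and 1.22 CPM in these replicate 3 libraries and at 263.1 to 349.2 CPM in the others, so replicate 3 had the RNA of female cells and replicates 1 and 2 that of male cells. Sex and replicate 3 cannot be told apart. The labels do not say whether replicates were separate animals or cultures, and p-values cover only the spread among these libraries. Libraries with the same replicate number deviated together from their group means, and differences within a replicate number are given beside the fold changes. Because replicate 3 stood apart in every group, this cannot show that replicates 1 and 2 were paired by number. In bulk RNA, fewer cells of a type and less RNA per cell cannot be told apart.

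Levels within the pathway, per kilobase of exon, spanned a wide range. In PBS the mean was highest for Fdps at 262 CPM per kilobase, followed by Hmgcs1 at 207, Msmo1 at 147, Scd2 at 141, Insig1 at 121 and Sqle at 111 CPM per kilobase. The lowest means in PBS belonged to the exporters Abca1 at 1.59 and Abcg1 at 4.06 CPM per kilobase and to Mylip at 5.19 CPM per kilobase. After Ox-mtDNA, Fdps averaged 148, Hmgcs1 137 and Msmo1 112 CPM per kilobase, and after mtDNA 212, 206 and 158 CPM per kilobase, so the same 3 genes had the highest means in each group. These means include replicate 3, where Srebf1, Srebf2, Scap and Fasn were far lower than in replicates 1 and 2. Srebf2 averaged 84.1 CPM per kilobase in PBS, from 566.8, 697.9 and 16.8 CPM, so its rank depends on replicate 3.

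The first question was how the set differed after Ox-mtDNA from the PBS vehicle. All 19 synthesis enzymes had a negative log2 fold change, as did 46.2% of all tested genes. Acat2, Sqle, Lss and Scd2 had the smallest p-values among the lower members. The exporter Abcg1 was the 1 member of the set higher in all 3 Ox-mtDNA libraries than in all 3 PBS libraries. In edgeR's quasi-likelihood test no member and no gene passed an adjusted p of 0.05 (0% of 17555 genes, smallest adjusted p = 0.472). At an unadjusted p under 0.05, edgeR held 1722 genes, limma-voom 1505 and DESeq2 2176. Among members, 7 of 33 were lower at that level, against 3.93% of all tested genes, and 1, Abcg1, was higher, against 5.88% of all tested genes. Abcg1 missed that level without Ox-mtDNA replicate 3, PBS replicate 2 or PBS replicate 3. DESeq2 called 369 genes at an adjusted p under 0.05, or 2.1% of those tested, and 4 members were among them, all lower. Limma-voom called 0 genes.

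Acat2, the cytosolic thiolase that joins acetyl-CoA units at the head of the pathway (chr17:13161777-13179634, GRCm39, minus strand), was measured in Ox-mtDNA replicates 1, 2 and 3 at 21.5, 19.6 and 33.02 CPM, against 57.5, 136.5 and 131.5 CPM in PBS. Every Ox-mtDNA library lay below every PBS library. Its log2 fold change was -2.13 ± 0.394 (SE, n = 3 each; edgeR adjusted p = 0.472), with an adjusted p of 0.00121 in DESeq2. Within replicates 1, 2 and 3 the differences in log2 CPM were -1.42, -2.79 and -1.99.

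Mvk, mevalonate kinase (chr5:114582330-114598652), was at 15.7, 12.2 and 19.0 CPM after Ox-mtDNA, against 28.1, 63.7 and 21.1 CPM in PBS. The groups did not overlap, but Ox-mtDNA and PBS replicate 3 were close, with a difference in log2 CPM of -0.15. Idi1, the isomerase that makes the 2 isoprene units interchangeable (chr13:8935537-8942487), was at 83.5, 46.1 and 95.0 CPM after Ox-mtDNA, against 93.9, 195.4 and 184.4 CPM in PBS. Ox-mtDNA replicate 3 lay just above PBS replicate 1, so these groups overlapped, and the log2 fold change of Idi1 was -1.08 ± 0.394 (SE, n = 3 each; edgeR adjusted p = 0.473). Hmgcs1, which condenses acetoacetyl-CoA with acetyl-CoA, was at 568.1, 279.4 and 579.6 CPM after Ox-mtDNA, against 535.9, 802.1 and 823.1 CPM in PBS. Its replicate 1 libraries were alike, and its lowest library was Ox-mtDNA replicate 2. The remaining mevalonate enzymes, the kinase Pmvk and the decarboxylase Mvd, had log2 fold changes of -0.16 and -0.87, with groups that overlapped.

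Sqle, squalene epoxidase, an oxygen-dependent and rate-limiting step (chr15:59186930-59203041), was at 91.4, 90.0 and 114.5 CPM after Ox-mtDNA, against 213.7, 353.0 and 348.6 CPM in PBS. The 3 Ox-mtDNA libraries lay close together and below all PBS libraries. The log2 fold change of Sqle was -1.63 ± 0.308 (SE, n = 3 each; edgeR adjusted p = 0.472), with an adjusted p of 0.00178 in DESeq2. Lss, the cyclase that folds squalene epoxide into lanosterol (chr10:76367441-76391313), was at 26.5, 19.7 and 50.8 CPM after Ox-mtDNA, against 80.3, 212.3 and 139.3 CPM in PBS. Its Ox-mtDNA libraries also lay below all PBS libraries, with a log2 fold change of -2.15 ± 0.502 (SE, n = 3 each; edgeR adjusted p = 0.472) and an adjusted p of 0.0139 in DESeq2. Of its exon bases, 8.16% are shared with an antisense gene, 4930483K19Rik, and reads of the pair cannot be told apart without strand. Dhcr7, which completes cholesterol from 7-dehydrocholesterol (chr7:143376904-143402147), was at 49.1, 30.7 and 89.0 CPM after Ox-mtDNA, against 93.7, 211.8 and 97.6 CPM in PBS. The groups did not overlap, although Ox-mtDNA replicate 3 lay close under PBS replicate 1, and the log2 fold change was -1.26 ± 0.489 (SE, n = 3 each; edgeR adjusted p = 0.478).

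The other enzymes had overlapping groups, with log2 fold changes from -0.96 to -0.38. Their log2 fold changes were -0.82 for the farnesyl diphosphate synthase Fdps, -0.48 for the geranylgeranyl diphosphate synthase Ggps1, -0.74 for the squalene synthase Fdft1 and -0.76 for the lanosterol demethylase Cyp51. Among the later enzymes that trim lanosterol, Nsdhl was at -0.91, Hsd17b7 at -0.96, Ebp at -0.70, Sc5d at -0.50, Tm7sf2 at -0.48 and Msmo1 at -0.38 on the log2 scale. Exons of Fdft1 share 19.4% of their bases with the antisense gene Ctsb, and those of Hmgcs1 share 16% with Gm48342. Ctsb had from 24851 counts in Ox-mtDNA replicate 2 to 70152 in PBS replicate 3, before any scaling for depth. How much of the Fdft1 level came from Ctsb reads was not tested.

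**Figure D1:**
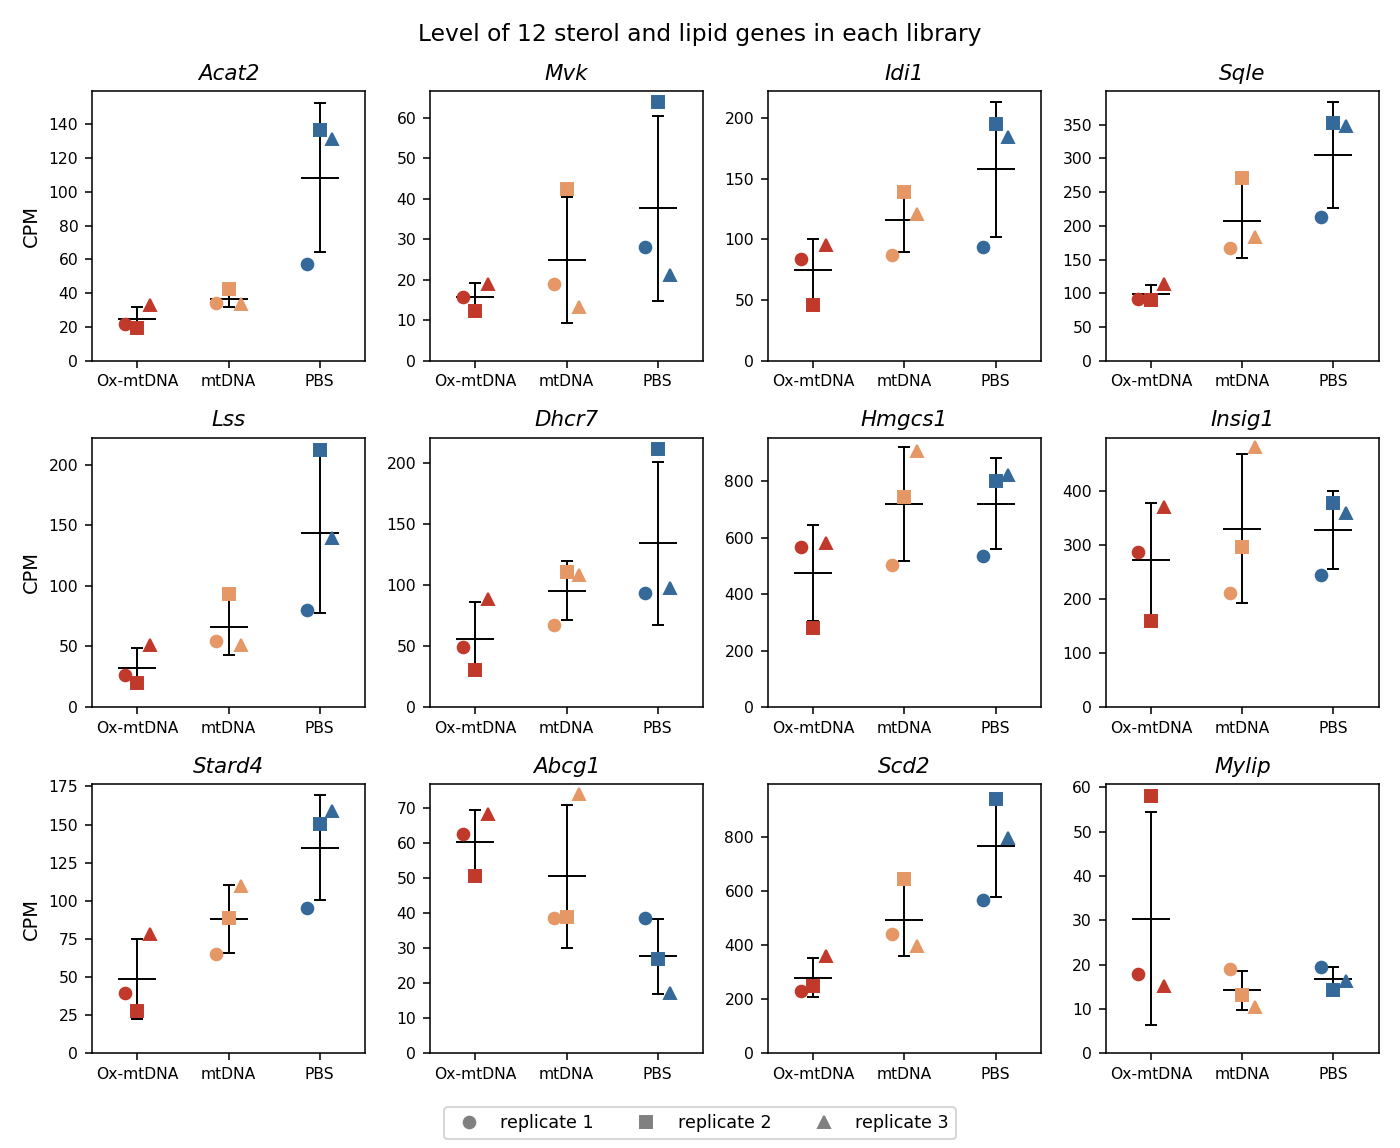
CPM of 12 genes (vertical axes) in each library, with Ox-mtDNA at the left, mtDNA in the middle and PBS at the right; circles, squares and triangles are replicates 1, 2 and 3, and lines give the mean ± SD (n = 3). The Acat2, Sqle, Lss, Stard4 and Scd2 points after Ox-mtDNA lie below all PBS points, those of Abcg1 lie above, and the Mylip mean after Ox-mtDNA rests on replicate 2 at 58.1 CPM.

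The 19 enzymes together had a median log2 fold change of -0.82 in Ox-mtDNA against PBS, and all tested genes had a median of 0.06. For 5 of the 19 (Acat2, Mvk, Sqle, Lss and Dhcr7) all 3 Ox-mtDNA libraries lay below all 3 PBS libraries, as did 7 of the 33 members (with Stard4 and Scd2) and 8.08% of all tested genes. For Abcg1 all 3 lay above, as for 7.39% of all tested genes. Within each replicate number, 14 of the 19 enzymes and 18 of the 33 members were lower in all 3 pairs, against 17.6% of all tested genes. The 18 include Srebf1 and Fasn, whose replicate 3 levels were near 0. These were 0.464 and 1.55 CPM after Ox-mtDNA, against 1.06 and 2.28 CPM in PBS. The size differed between replicate numbers. The median difference of the 19 enzymes by pair was -0.39, -1.97 and -0.18 in log2 CPM (replicates 1, 2 and 3), with 15, 18 and 16 enzymes lower.

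Replicate 2 was the pair in which nearly the whole pathway was low. Set against replicate 1 of the same group, Ox-mtDNA replicate 2 had lower values for 17 of 19 enzymes, with a median difference of -0.67 in log2 CPM. In mtDNA, replicate 2 had higher values than replicate 1 for 18 of 19 enzymes, with a median of 0.64, and in PBS likewise for 18 of 19, with a median of 0.97. The median over all tested genes was -0.01, 0 and -0.01 in the same comparisons. Summed over the 19 enzymes, the level was 1815 CPM for Ox-mtDNA replicate 1, 1140 CPM for replicate 2 and 2864 CPM for replicate 3, 1964, 3060 and 3686 CPM after mtDNA, and 2298, 4143 and 3896 CPM in PBS. Ox-mtDNA replicate 3 lay above PBS replicate 1 in this sum, so the groups overlapped. Acat2, Sqle, Lss, Stard4 and Scd2 differed by -1.02 or more in every replicate pair, while the enzymes Hmgcs1, Pmvk, Msmo1, Tm7sf2 and Ggps1 lay above the PBS level in at least 1 pair. So did the other members Srebf2, Scap, Insig1, Insig2, Mylip, Abca1, Abcg1, Scd1, Fads1 and Fads2.

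Ox-mtDNA replicate 2 also stood out in cell type markers. The summed level of the 12 pDC markers was 7108 CPM for Ox-mtDNA replicate 1, 4109 CPM for replicate 2 and 6287 CPM for replicate 3, against 6329 to 8297 CPM after mtDNA and 7478 to 9911 CPM in PBS. In Ox-mtDNA against PBS, 11 of the 12 pDC markers had a negative log2 fold change, with a median of -0.74. The summed level of 8 B cell markers was 292.6, 649.2 and 125.8 CPM in Ox-mtDNA, against 175.5 to 223.8 CPM after mtDNA and 266.9 to 401.9 CPM in PBS. The summed levels of 8 monocyte and macrophage markers were 388.2 to 454.0 CPM, against 280.1 to 433.7 CPM after mtDNA and 251.1 to 382.0 CPM in PBS. Those of 8 conventional dendritic cell markers were 121.6 to 213.7 CPM, against 197.6 to 316.7 CPM after mtDNA and 299.7 to 356.2 CPM in PBS. Markers of T and NK cells summed to at most 40.1 CPM, of neutrophils to at most 9.95 CPM and of erythroid cells to at most 0.558 CPM in any library. No marker was at 0 in all libraries, and the part of these cells in the enzyme levels was not tested. Without Ox-mtDNA replicate 2 the median of the enzymes was -0.56, with 18 of 19 negative.

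**Figure D2:**
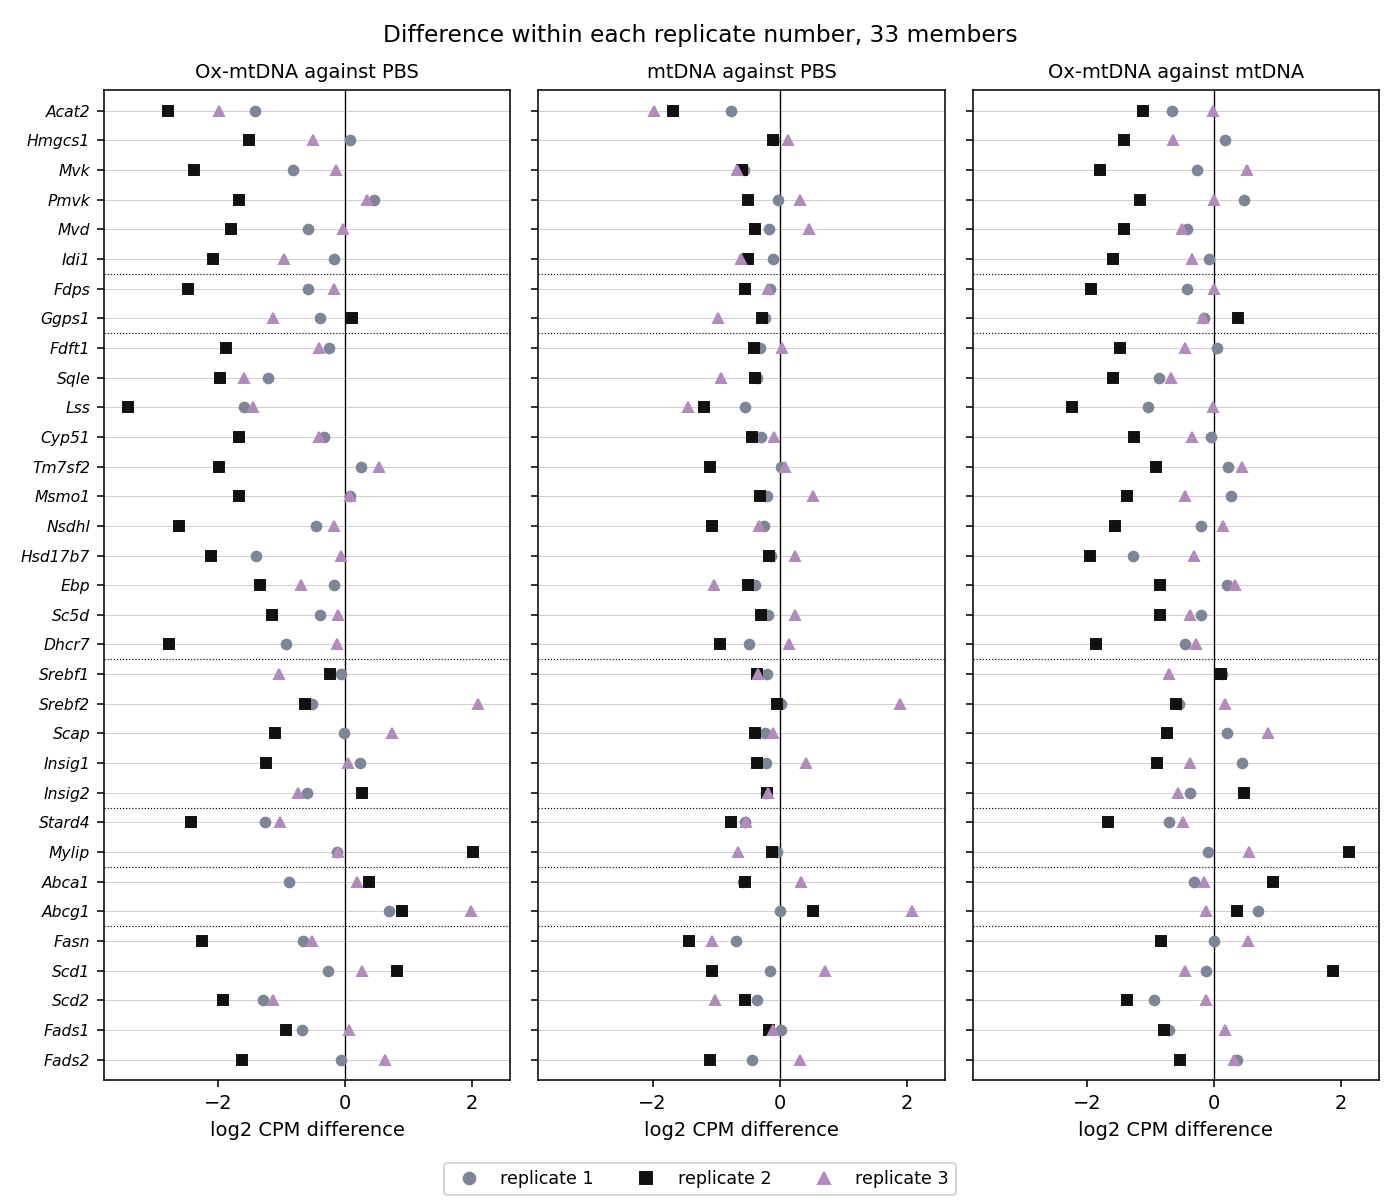
Difference in log2 CPM (horizontal axes) between 2 groups within each replicate number, for each of the 33 members (rows, by role), with Ox-mtDNA against PBS at the left, mtDNA against PBS in the middle and Ox-mtDNA against mtDNA at the right. In the panels with Ox-mtDNA the squares of replicate 2 lie farthest to the left for most enzymes, with medians over the 19 enzymes of -1.97 against PBS and -1.42 against mtDNA.

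When replicate 3 was left out of all groups, the median of the enzymes was -1.15, again with 19 of 19 negative. EdgeR then called 25 genes, all higher (0.146% of 17151 tested), and no member. At an unadjusted p under 0.05, 16 members were lower, against 6.57% of tested genes. With the replicate number as a block, the median was -0.81, and edgeR called 1 gene that is no member (0.0057% of tested genes). In that fit 14 members were lower at an unadjusted p under 0.05, against 8.01% of tested genes, where the fit without the block held 7. The smallest adjusted p of a member with the block was 0.115, shared by Acat2, Sqle, Stard4 and Scd2. Without Ox-mtDNA replicate 3 alone, 14 members were lower at that level, against 3% of the genes tested in that fit, and the median of the enzymes was -1.34.

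The 5 regulators of SREBP were measured next. Insig1, whose product retains SCAP and which is itself an SREBP target, was at 286.6, 158.4 and 369.2 CPM after Ox-mtDNA, against 244.8, 376.7 and 359.3 CPM in PBS. Its groups overlapped, and only replicate 2 was lower, with a difference in log2 CPM of -1.25. Insig2, the second retention protein, was at 12.5, 24.2 and 17.9 CPM after Ox-mtDNA, against 19.0, 20.2 and 29.99 CPM in PBS, with groups that overlapped.

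Srebf2, which encodes the main activator of cholesterol synthesis, was at 393.7, 448.4 and 71.7 CPM after Ox-mtDNA, against 566.8, 697.9 and 16.8 CPM in PBS. Ox-mtDNA was lower in replicates 1 and 2 and higher in replicate 3, where all levels were low. Srebf1, whose products favour fatty acid genes, was at 129.5, 140.2 and 0.464 CPM after Ox-mtDNA, against 135.5, 165.8 and 1.06 CPM in PBS. Scap was at 222.9, 107.3 and 4.70 CPM after Ox-mtDNA, against 226.4, 232.1 and 2.77 CPM in PBS. In both genes the replicate 3 libraries were near 0 in either group. Log2 fold changes over all 3 replicates therefore had large errors, at -0.49 ± 1.26 for Srebf2, -0.16 ± 2.03 for Srebf1 and -0.46 ± 1.76 for Scap (SE, n = 3 each; edgeR adjusted p = 1 for each). Exons of Scap share 18.6% of their bases with the antisense gene 5830462I19Rik.

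The loss of Srebf1, Srebf2, Scap and Fasn in replicate 3 was seen in all 3 groups. Replicate 3 minus the mean of replicates 1 and 2 was -7.89, -7.08 and -7.01 in log2 CPM for Srebf1 in Ox-mtDNA, mtDNA and PBS. It was -2.55, -3.30 and -5.22 for Srebf2, -5.01, -6.13 and -6.32 for Scap, and -6.58, -7.54 and -7.52 for Fasn. These 4 genes have transcripts with 57.9% to 59.1% GC and 4227 to 10050 exon bases. Mvd, Pmvk and Mvk have a GC of 59%, 57% and 56.3% but 1756, 1713 and 1996 exon bases, and their differences ranged from -1.10 to 1.36. Over all tested genes with 55% to 60% GC, the median difference was -3.26, -3.50 and -4.18 in Ox-mtDNA, mtDNA and PBS for genes of 4000 or more exon bases. For genes under 2000 exon bases in the same GC range it was -0.05, -0.15 and -0.20. Treatment effects on these 4 long GC-rich members thus rest on replicates 1 and 2, and the cause of the loss was not tested. With replicates 1 and 2 only, log2 fold changes ± SE in Ox-mtDNA against PBS were -0.58 ± 0.205 for Srebf2 and -1.45 ± 0.378 for Fasn. They were -0.15 ± 0.198 for Srebf1 and -0.47 ± 0.354 for Scap. The edgeR adjusted p was 0.273, 0.197, 0.761 and 0.575 in the same order.

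**Figure D3:**
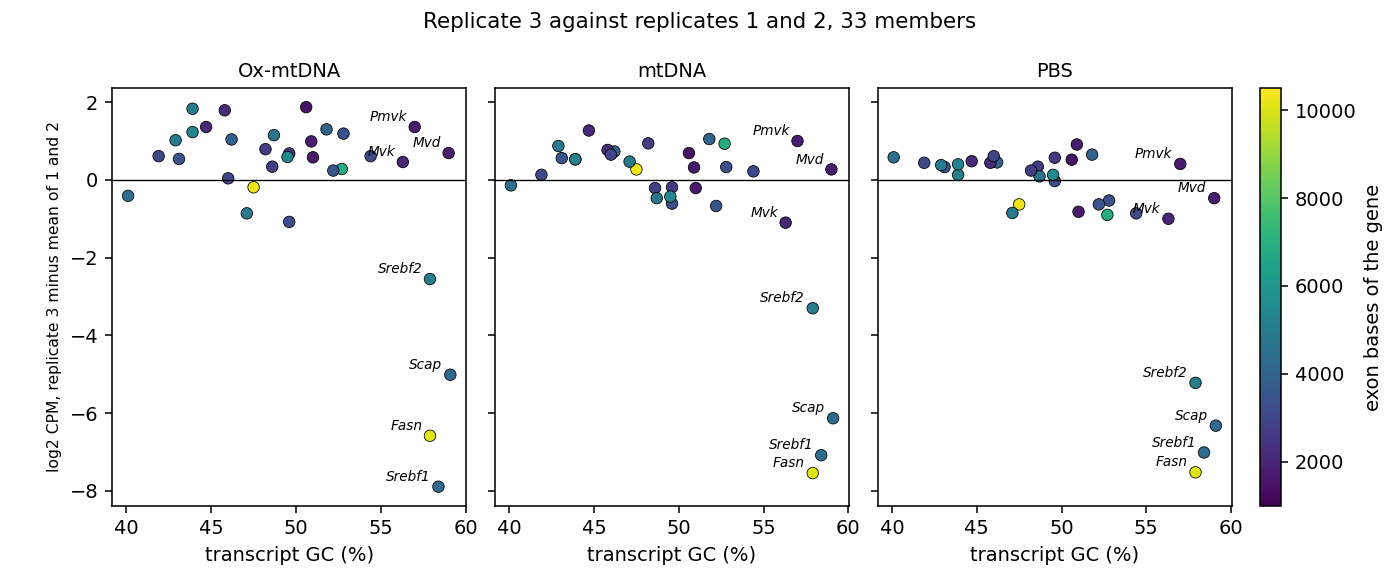
Replicate 3 minus the mean of replicates 1 and 2 in log2 CPM (vertical axis) against the GC of the transcript in percent (horizontal axis) for the 33 members, in Ox-mtDNA, mtDNA and PBS from left to right; colour gives the exon bases of the gene. Srebf1, Scap, Fasn and Srebf2 lie at -2.55 or lower in every group, whereas Mvd, Pmvk and Mvk, of similar GC and fewer exon bases, lie between -1.10 and 1.36.

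Stard4, a carrier that moves cholesterol between membranes and an SREBP target, was at 39.8, 27.9 and 78.3 CPM after Ox-mtDNA, against 95.5, 150.4 and 158.6 CPM in PBS. All Ox-mtDNA libraries lay below all PBS libraries, with a log2 fold change of -1.47 ± 0.431 (SE, n = 3 each; edgeR adjusted p = 0.472). Mylip, a ubiquitin ligase that degrades lipoprotein receptors and a liver X receptor target, was at 17.9, 58.1 and 15.2 CPM after Ox-mtDNA, against 19.6, 14.4 and 16.4 CPM in PBS. Only Ox-mtDNA replicate 2 was high, and without it the log2 fold change of Mylip was -0.04, against 0.86 with it.

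Abcg1, the exporter that passes cholesterol to lipoproteins (chr17:31276661-31336962), was at 62.7, 50.6 and 68.2 CPM after Ox-mtDNA, against 38.7, 27.1 and 17.3 CPM in PBS. It was higher in all 3 replicate pairs, by 0.69, 0.90 and 1.98 in log2 CPM, and its log2 fold change was 1.13 ± 0.392 (SE, n = 3 each; edgeR adjusted p = 0.472). Abca1, which loads cholesterol onto apolipoproteins and is also a liver X receptor target, was at 13.97, 15.4 and 12.8 CPM after Ox-mtDNA, against 26.0, 11.8 and 11.3 CPM in PBS. Its groups overlapped, with PBS replicate 1 highest, and its log2 fold change was -0.22, or 0.27 without PBS replicate 1.

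In fatty acid synthesis and desaturation the median log2 fold change of the 5 genes was -0.54, with 4 negative. Scd2, a desaturase that makes monounsaturated fatty acids, was at 230.3, 249.5 and 361.6 CPM after Ox-mtDNA, against 566.2, 942.5 and 798.3 CPM in PBS. The groups lay apart, with a log2 fold change of -1.46 ± 0.324 (SE, n = 3 each; edgeR adjusted p = 0.472) and an adjusted p of 0.0127 in DESeq2. Its paralog Scd1 was at 27.1, 49.8 and 20.2 CPM after Ox-mtDNA, against 32.8, 28.4 and 16.9 CPM in PBS, and was highest in Ox-mtDNA replicate 2, the library that was also highest in Mylip. Fasn, fatty acid synthase, was at 210.6, 119.0 and 1.55 CPM after Ox-mtDNA, against 335.3, 569.8 and 2.28 CPM in PBS. It was lower in all 3 pairs, at -0.67, -2.26 and -0.53 in log2 CPM, the last from levels near 0. Fads1, the delta-5 desaturase of polyunsaturated fatty acids, was at 98.4, 86.3 and 108.9 CPM after Ox-mtDNA, against 158.1, 165.5 and 104.4 CPM in PBS. Fads2, the delta-6 desaturase, was at 321.1, 151.1 and 335.7 CPM after Ox-mtDNA, against 336.8, 466.1 and 217.6 CPM in PBS. In both desaturases replicate 3 was higher after Ox-mtDNA than in PBS, so the groups overlapped.

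**Figure D4:**
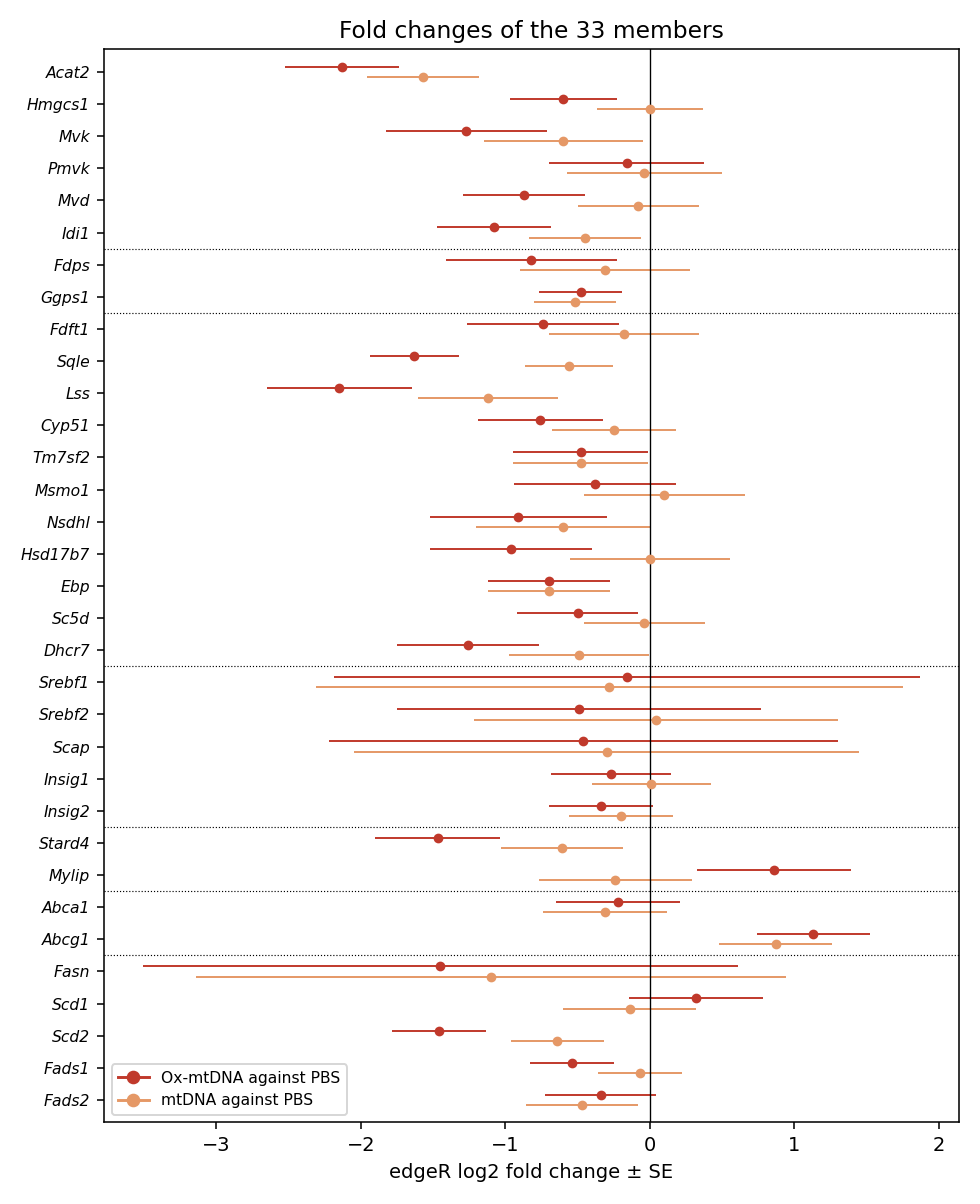
EdgeR log2 fold change ± SE (horizontal axis) of the 33 members, by role from top to bottom, for Ox-mtDNA against PBS and mtDNA against PBS; the PBS libraries are shared by both. All 19 enzymes lie left of 0 after Ox-mtDNA, Abcg1 lies right of 0 at 1.13, and Srebf1, Scap and Fasn have SE of 1.75 to 2.06.

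A further comparison set mtDNA against PBS, and it shares its PBS libraries with the comparison above. EdgeR called no gene (0% of tested genes, smallest adjusted p = 1), although 460 genes had an unadjusted p under 0.05. DESeq2 called 13 genes (0.0741%), none of them a member, and limma-voom called 0. Of the 19 enzymes 18 had a negative log2 fold change (16 with RLE size factors or DESeq2, where Hmgcs1 and Hsd17b7 were at 0.02), as had 48% of all tested genes, and the median was -0.45. The medians were -0.23, -0.49 and -0.08 in replicates 1, 2 and 3, and 17 of the 33 members were lower in all 3 pairs, against 19.4% of all tested genes. The 17 include Srebf1, Scap and Fasn, whose replicate 3 levels were near 0. These were 0.816, 2.56 and 1.03 CPM after mtDNA, against 1.06, 2.77 and 2.28 CPM in PBS. Without PBS replicate 2 the median of the enzymes was -0.15, with 11 of 19 negative, and without mtDNA replicate 1 it was -0.29, with 12 of 19 negative.

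Acat2 was at 34.0, 42.5 and 33.4 CPM after mtDNA, below all PBS libraries at 57.5, 136.5 and 131.5 CPM. Its log2 fold change was -1.57 ± 0.386 (SE, n = 3 each; edgeR adjusted p = 1). Acat2 and Ggps1 were the 2 members with all 3 mtDNA libraries below all 3 PBS libraries, against 4.96% of all tested genes. Acat2 and Lss, at -1.12 ± 0.487, were the 2 lower members at an unadjusted p under 0.05, against 0.598% of all tested genes. There were 4 such members without mtDNA replicate 2 (0.225% of the genes tested in that fit) or without PBS replicate 1 (0.481%). There was 1 without mtDNA replicate 1 (0.289%), mtDNA replicate 3 (0.501%), PBS replicate 2 (0.412%) or PBS replicate 3 (0.178%). Abcg1 was at 38.6, 39.0 and 74.1 CPM after mtDNA, overlapping with PBS at 38.7, 27.1 and 17.3 CPM, and replicate 3 held most of its difference.

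In Ox-mtDNA against mtDNA, where both groups received mitochondrial DNA, edgeR again called no gene (0% of tested genes, smallest adjusted p = 1), although 422 had an unadjusted p under 0.05. DESeq2 called 1 gene, which is no member (0.0057%), and limma-voom called 0. The log2 fold change was negative for 18 of the 19 enzymes (16 with RLE size factors or DESeq2, where Tm7sf2 and Ebp were at 0.00) and for 45.8% of all tested genes, with a median of -0.56 over the enzymes and 0.04 over all tested genes. All 3 pairs were lower for 11 of the 33 members, against 12.7% of all tested genes. The median of the enzymes was -0.20, -1.42 and -0.28 in replicates 1, 2 and 3. Without mtDNA replicate 3 the median of the enzymes was -0.19, with 14 of 19 negative, without Ox-mtDNA replicate 2 it was -0.29, with 15 of 19 negative, and without Ox-mtDNA replicate 3 it was -0.99, with 18 of 19 negative.

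Sqle was at 91.4, 90.0 and 114.5 CPM after Ox-mtDNA, against 167.3, 270.7 and 183.9 CPM after mtDNA. Every Ox-mtDNA library lay below every mtDNA library, and the log2 fold change was -1.07 ± 0.304 (SE, n = 3 each; edgeR adjusted p = 1). Scd2 was at 230.3, 249.5 and 361.6 CPM after Ox-mtDNA, against 442.1, 646.0 and 396.2 CPM after mtDNA, at -0.82 ± 0.320. Sqle and Scd2 were the 2 lower members at an unadjusted p under 0.05, against 1.48% of all tested genes. Their number was 7 without Ox-mtDNA replicate 3 (1.89% of the genes tested in that fit) and 3 without mtDNA replicate 1 (0.455%). It was 1 without Ox-mtDNA replicate 1 (0.596%), Ox-mtDNA replicate 2 (2.7%) or mtDNA replicate 2 (0.327%). With Acat2 and Lss, 4 members had all 3 Ox-mtDNA libraries below all 3 mtDNA libraries, against 2.79% of all tested genes, although replicate 3 of both genes differed by only -0.02 in log2 CPM. Acat2 was at 21.5, 19.6 and 33.02 CPM after Ox-mtDNA, against 34.0, 42.5 and 33.4 CPM after mtDNA. Lss was at 26.5, 19.7 and 50.8 CPM after Ox-mtDNA, against 54.8, 93.0 and 51.4 CPM after mtDNA.

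By group mean, 17 of the 19 enzymes were lowest after Ox-mtDNA, intermediate after mtDNA and highest in PBS, an order found for 22.5% of all tested genes. Some of these steps were near ties. Means after Ox-mtDNA and mtDNA were 32.62 and 32.63 CPM for Ebp and 12.84 and 12.89 CPM for Tm7sf2. Means after mtDNA and in PBS were 91.69 and 91.71 CPM for Hsd17b7 and 718.5 and 720.3 CPM for Hmgcs1. The order Ox-mtDNA, mtDNA, PBS from lowest to highest held for 13 enzymes within replicate 1, 18 within replicate 2 and 6 within replicate 3. It held for 19%, 24.3% and 19.6% of all tested genes. Ox-mtDNA was the lowest of the 3 groups for 13, 18 and 12 of the 19 enzymes in replicates 1, 2 and 3, against 42.3%, 43.2% and 26.8% of all tested genes. Mvk was at 19.0, 42.4 and 13.2 CPM, Idi1 at 87.4, 138.9 and 120.9 CPM and Dhcr7 at 67.4, 110.9 and 108.4 CPM after mtDNA, each overlapping with both other groups. Stard4 was at 65.3, 88.9 and 109.9 CPM after mtDNA, with replicate 1 below the highest Ox-mtDNA library and replicate 3 above the lowest PBS library. The regulators Insig1 and Srebf2 after mtDNA, at 211.8, 295.8 and 481.5 CPM and at 574.6, 678.9 and 63.2 CPM, overlapped with PBS. Fasn after mtDNA was at 209.6, 213.3 and 1.03 CPM, and lower than PBS in all 3 pairs.

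Values in every mtDNA library follow for the other regulators, exporters and desaturases. Srebf1 was at 118.6, 130.0 and 0.816 CPM and Scap at 193.2, 178.4 and 2.56 CPM after mtDNA, both near 0 in replicate 3. Insig2 was at 16.3, 17.5 and 26.5 CPM and Mylip at 19.0, 13.2 and 10.4 CPM. Abca1 was at 17.3, 8.05 and 14.2 CPM after mtDNA. Of the desaturases, Scd1 was at 29.5, 13.55 and 27.8 CPM, Fads1 at 161.3, 148.4 and 97.0 CPM and Fads2 at 247.7, 218.6 and 271.3 CPM. The mtDNA libraries of each of these genes overlapped with those of PBS, and the high levels of Mylip and Scd1 in Ox-mtDNA replicate 2 had no counterpart after mtDNA.

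A wider list of 30 genes around the pathway, of which 29 were tested, was set beside the members. In Ox-mtDNA against PBS, 21 of the 29 had a negative log2 fold change, against 46.2% of all tested genes, with a median of -0.22, against 0.06 over all tested genes. At an unadjusted p under 0.05, 3 were lower, against 3.93% of all tested genes, and 1 was higher, against 5.88%, and none passed edgeR's adjusted threshold. Acly, which makes the acetyl-CoA that feeds both pathways, had a log2 fold change of -0.61 ± 0.266 (edgeR adjusted p = 0.506). The proteases Mbtps1 and Mbtps2, which cleave SREBP in the Golgi, each had -0.70, with SE of 0.277 and 0.250 (edgeR adjusted p = 0.479 and 0.472). Exons of Mbtps2 share 36.1% of their bases with Yy2. Fabp5, a fatty acid carrier, was at 22.6, 56.3 and 46.8 CPM after Ox-mtDNA, against 17.2, 14.5 and 25.4 CPM in PBS, with a log2 fold change of 1.14 ± 0.434 (edgeR adjusted p = 0.473). In mtDNA against PBS none of the 29 passed an unadjusted p of 0.05 in edgeR, and in Ox-mtDNA against mtDNA only Mbtps2 did, at -0.60.

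The genes that make or sense oxysterols and store cholesterol were measured as well. Ch25h, cholesterol 25-hydroxylase, an interferon-induced enzyme in macrophages, was at 0.270, 0.529 and 0.568 CPM after Ox-mtDNA, against 0.186, 0 and 0 CPM in PBS, too low to pass the filter on low counts. With no filter its log2 fold change, from levels near 0, was 2.72 ± 1.46 (edgeR adjusted p = 0.771). Nr1h3, liver X receptor alpha, was at 0.405, 2.91 and 1.08 CPM after Ox-mtDNA, against 1.26, 1.29 and 0.493 CPM in PBS. Nr1h2, liver X receptor beta, was at 159.5, 136.8 and 14.1 CPM, against 112.4, 111.0 and 5.16 CPM in PBS, with replicate 3 low in both groups. Soat1, which esterifies cholesterol for storage, was at 29.0, 30.6 and 21.9 CPM after Ox-mtDNA, against 28.8, 30.4 and 36.8 CPM in PBS, with groups that overlapped.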

How the data were processed

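The authors deposited 1 table of raw, unnormalized counts for the 9 libraries. The submitters' processing notes name fastp 0.23.4, STAR 2.7.11b, featureCounts 2.0.1 and the genome GRCm39. Exons of GENCODE M34 were counted by featureCounts without strand, per the file headers, and a fragment over several genes was counted for each, so overlapping genes are uncertain. Samples were grouped from their titles, and depth was 16029951 to 25378884 counts, a depth at which the spread between replicates exceeded counting error (10.8 or more times its variance).

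In R 4.3.3, genes were filtered with filterByExpr of edgeR 4.0.16 (minimum count 10), scaled with TMM and fitted with 1 coefficient per group and 6 residual degrees of freedom. The quasi-likelihood F-test, two-sided, was adjusted by Benjamini-Hochberg over 17555 genes at 0.05. Each SE of an edgeR log2 fold change was derived from this test, as its absolute value divided by the square root of F. Log2 CPM used a prior count of 2. Alternatives were RLE size factors, DESeq2 1.42.0, limma-voom (limma 3.58.1), no filter, the 6 libraries of a comparison, replicates 1 and 2 only, each library left out, and the replicate number as a block. The scripts were tested on simulated data. Same-numbered libraries deviated together from their group means (correlations 0.487 to 0.897, all over 0.1), and the titles' replicate numbers were taken to pair the samples. Replicate 3 stood apart in every group, so replicates 1 and 2 deviate from the group means together whichever way they are paired. The correlations therefore cannot show that replicates 1 and 2 are paired by number.

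Members, lists and tests were chosen with earlier results of these data known. By rule, all members are named, values in every library are given for the 14 members outside the 19 enzymes and for the 6 enzymes with the smallest p in Ox-mtDNA against PBS, and wider-list genes are named at an unadjusted p under 0.05, with Ch25h, Nr1h2, Nr1h3 and Soat1 in any case. Hmgcs1 was added after its values were seen. Promoters came from RefSeq (GRCm38.p6), in the strand given: the last 30 bases matched a transcript of the gene for 22 of 25 members. Members without a promoter there are Sqle, Fdft1, Fads1, Scd2, Stard4, Abcg1, Scd1 and Fdps.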

Additional observations from a re-analysis of the deposited data

How the results depend on the processing

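Over whole libraries the 3 replicates per group, rather than depth, limit the precision, which need not hold for genes at low levels. Replicate 3 holds little signal for long GC-rich genes. EdgeR calls were the same with RLE size factors, no filter and the 6 libraries of a comparison. DESeq2 called 369 genes and 4 members in Ox-mtDNA against PBS, 13 genes in mtDNA against PBS and 1 gene in Ox-mtDNA against mtDNA. In Ox-mtDNA against PBS the replicate block gave 1 called gene and replicates 1 and 2 only gave 25. The replicate block changed no call of a member. The cause of these differences was not tested. Leaving out 1 library at a time, edgeR called 0 genes throughout, and the median of the enzymes ranged from -1.34 to -0.56 in Ox-mtDNA against PBS, from -0.62 to -0.15 in mtDNA against PBS and from -0.99 to -0.19 in Ox-mtDNA against mtDNA.

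The signs that turned, over all 33 members, belong to log2 fold changes that passed no edgeR or DESeq2 threshold. With RLE size factors and with DESeq2, Hmgcs1 and Hsd17b7 were each at 0.02 in mtDNA against PBS, and Tm7sf2 and Ebp at 0.00 in Ox-mtDNA against mtDNA. With the 6 libraries of a comparison, Hmgcs1 and Hsd17b7 were at 0.06 and Pmvk and Sc5d at 0.03 in mtDNA against PBS, and Tm7sf2 and Ebp at 0.02 in Ox-mtDNA against mtDNA. With limma-voom, Srebf2 was at 0.31 in Ox-mtDNA against PBS, Insig1 at -0.05 in mtDNA against PBS, and Srebf1 at -0.27 and Scap at 0.06 in Ox-mtDNA against mtDNA. With no filter, Insig1 was at -0.04 in mtDNA against PBS. With the replicate block, Srebf2 was at 0.20 in Ox-mtDNA against PBS, Insig1 at -0.06 and Msmo1 at -0.02 in mtDNA against PBS, and Srebf1 at -0.05, Scap at 0.14 and Tm7sf2 at 0.04 in Ox-mtDNA against mtDNA. With replicates 1 and 2 only, Srebf2 was at -0.02, Insig1 at -0.29 and Msmo1 at -0.27 in mtDNA against PBS, and Insig2 was at 0.13 in Ox-mtDNA against mtDNA.

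Leaving out 1 library at a time turned the sign of the following members. In Ox-mtDNA against PBS the log2 fold change ranged from -0.44 to 0.27 for Abca1, -0.04 to 1.13 for Mylip, -0.76 to 0.19 for Pmvk, -1.47 to 0.09 for Scap, -0.15 to 0.53 for Scd1, -0.75 to 0.41 for Srebf1, -1.06 to 0.05 for Srebf2 and -0.75 to 0.10 for Tm7sf2. In mtDNA against PBS it ranged from -0.57 to 0.18 for Abca1, -0.26 to 0.07 for Fads1, -0.67 to 0.08 for Fdft1, -0.27 to 0.18 for Hmgcs1, -0.23 to 0.24 for Hsd17b7, -0.43 to 0.23 for Insig1, -0.52 to 0.03 for Insig2, -0.49 to 0.40 for Msmo1, -0.29 to 0.39 for Mvd, -1.23 to 0.01 for Mvk, -0.51 to 0.19 for Pmvk, -0.44 to 0.19 for Sc5d, -0.88 to 0.26 for Scap, -0.38 to 0.13 for Scd1, -0.86 to 0.29 for Srebf1, -0.53 to 0.58 for Srebf2 and -0.74 to 0.11 for Tm7sf2. In Ox-mtDNA against mtDNA it ranged from -0.17 to 0.34 for Abca1, -0.43 to 0.29 for Ebp, -0.10 to 0.41 for Fads2, -1.23 to 0.23 for Fasn, -0.18 to 0.13 for Ggps1, -0.63 to 0.15 for Insig1, -0.41 to 0.14 for Insig2, -1.12 to 0.10 for Msmo1, -1.21 to 0.05 for Nsdhl, -0.73 to 0.35 for Pmvk, -1.16 to 0.41 for Scap, 0.00 to 0.66 for Scd1, -0.47 to 0.70 for Srebf1 and -0.23 to 0.26 for Tm7sf2.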

Other observations

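Of the 29 tested genes of the wider list, 8 were lower after Ox-mtDNA than in PBS in all 3 replicate pairs, against 17.6% of all tested genes. They were Acly, Mbtps1, Mbtps2, Aacs, Elovl6, Erlin1, Erlin2 and Rnf139, and 3 of them (Mbtps1, Mbtps2 and Erlin2) had all Ox-mtDNA libraries below all PBS libraries, against 8.08% of all tested genes. Values of 3 follow, chosen after they were seen. Erlin2, an endoplasmic reticulum protein, was at 20.2, 44.3 and 13.5 CPM after Ox-mtDNA, 49.6, 50.9 and 17.9 CPM after mtDNA, and 50.6, 47.7 and 69.5 CPM in PBS. Aacs, which recycles ketone bodies into sterol precursors, was at 76.8, 85.2 and 47.5 CPM after Ox-mtDNA, 107.6, 181.1 and 52.4 CPM after mtDNA, and 165.7, 313.4 and 53.1 CPM in PBS. Elovl6, an elongase of saturated fatty acids, was at 32.95, 9.36 and 43.9 CPM after Ox-mtDNA, 29.4, 31.6 and 42.7 CPM after mtDNA, and 37.4, 80.3 and 70.9 CPM in PBS. Its lowest library was Ox-mtDNA replicate 2, as for most enzymes of the set.

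Reads of Lss cannot be told apart from those of its antisense neighbour 4930483K19Rik where exons overlap. The neighbour had 62, 63 and 138 counts after Ox-mtDNA, 147, 260 and 146 after mtDNA, and 218, 579 and 535 in PBS, before any scaling for depth.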
